A study of Mus musculus with 60 samples.

Results

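The clustered histone genes encode the core histones H2A, H2B, H3 and H4 and the linker histone H1, most of them packed into a few gene clusters. They were taken as every gene whose symbol begins with Hist1h, Hist2h, Hist3h or Hist4h, without the pseudogenes, which gave 67 of the 38204 genes in the expression table. The family held 6 H1, 18 H2A, 18 H2B, 12 H3 and 13 H4 genes. On the mouse assembly GRCm38, 54 of them lie on chromosome 13 between positions 21715763 and 23934851, 10 on chromosome 3, 2 on chromosome 11 and 1 on chromosome 6.

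RNA sequencing was carried out on left liver lobes of 60 male C3H/HeNCrl mice, a strain used to study radiation-induced liver tumours. Groups of 3 mice had received 0.2 Gy of 56Fe, 16O or 28Si ions at 8 to 10 weeks of age, or were non-irradiated controls, and livers were collected at 1, 2, 4, 9 and 12 months. All groups shared the strain and sex, no engineered allele is given for any, and the 3 ions were compared with the same 3 control livers at each time. Liver tissue holds many cell types, so fewer cells of a type and less RNA per cell cannot be told apart, and p-values measure the spread among 3 mice.

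Histone mRNAs of these clusters are made mainly in S phase, when new DNA has to be packaged. Most of them end in a conserved stem-loop instead of a poly(A) tail. The stem-loop is bound by stem-loop binding protein, which takes part in the processing, translation and decay of these mRNAs. Libraries selected on poly(A) therefore capture them poorly, whereas the libraries here were made from RNA depleted of ribosomal RNA. The adult liver is known as an organ in which few cells divide.

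The stem-loop is shown because it is the sequence that sets these mRNAs apart from other mRNAs. It was found after the stop codon in the main transcript of 46 of the 67 genes, 21 to 58 bases downstream of the stop (median 31). Of the 21 genes without it, 18 had an annotated 3′ UTR under 60 bases, and the others were Hist1h2bc, Hist2h2be and Hist1h2br. The sequences below run 5′ to 3′ along the mRNA, written as DNA, from GENCODE M21 transcripts on GRCm38, all on chromosome 13 except Hist2h2ac on chromosome 3, and capitals mark the 16 bases of the stem-loop:
Hist1h4h: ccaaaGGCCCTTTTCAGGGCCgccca
Hist1h4a: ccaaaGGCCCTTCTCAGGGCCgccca
Hist1h4i: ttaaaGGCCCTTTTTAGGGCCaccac
Hist1h1e: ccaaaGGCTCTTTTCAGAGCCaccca
Hist1h1c: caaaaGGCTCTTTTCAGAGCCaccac
Hist1h2ab: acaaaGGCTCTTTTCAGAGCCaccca
Hist2h2ac: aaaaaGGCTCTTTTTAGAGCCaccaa
Hist1h2bb: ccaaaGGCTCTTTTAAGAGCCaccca
Hist1h3e: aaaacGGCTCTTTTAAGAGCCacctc

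The most common form, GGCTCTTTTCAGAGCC, was carried by 26 genes of the families H1, H2A, H2B and H3. The 12 H4 genes with a stem-loop had the stem GGCCC or GGTCC, and no gene of the other families had either stem. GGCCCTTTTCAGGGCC was the main H4 form, in 7 genes. The pattern searched was GG, 4 bases, T, any base, T, 5 bases and CC, on the transcript strand alone, with a fully complementary stem and pyrimidines at stem positions 3 to 6. It was present in the first 75 bases after the stop of 38 of 43 histone genes with a window of that length (88.4%), and in 2 of 20450 other coding genes (0.00978%), H2afx and H2bfm, both histone genes outside the clusters. This count used the transcript with the longest 3′ UTR of each gene, not the main transcript. A match describes the letters only and is not a measurement of binding.

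Expression was measured in RPKM, reads scaled to the length of the transcript and to the mapped reads of the library, summed over the transcripts of a gene. The libraries held 11412665 to 40568208 mapped read pairs. Hepatocyte marker sums ranged from 25758 to 55915 RPKM in livers at 4, 9 and 12 months and from 19251 to 35792 RPKM in livers at 1 and 2 months, with Alb, the serum albumin gene, at a mean of 21751 RPKM. The share of reads that fell in annotated transcripts was 56.0 to 88.4% at 4, 9 and 12 months and 43.4 to 66.4% at 1 and 2 months (medians 81.1% and 53.5%), so that most libraries of the 2 early times stood apart from the rest. No label gives a library batch, and time after irradiation, age and any difference between library preparations cannot be told apart. Most genes are short and alike: in 40 of the 67, fewer than 50% of the 36-base stretches of the main transcript were found in no other gene. Values of such genes may hold reads of their relatives or lack reads of their own.

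Clustered histone RNA was detected in every liver, and a few genes carried most of it. The 67 genes summed to 149 to 400 RPKM per liver, with a median of 263 RPKM. A mean of at least 0.5 RPKM was reached by 31 genes, another 31 were below that level and above 0, and 27 were above 0 in all 60 livers. The 7 genes with a mean of at least 10 RPKM held 76.2% of the summed mean. Hist2h2aa1, Hist2h2aa2, Hist2h2bb, Hist2h3b and Hist2h3c1 were listed at 0 in all livers. In the main transcript of each of these 5, no 36-base stretch was particular to the gene. The same was true of Hist1h2bq, which was above 0 in 6 livers.

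**Figure D1:**
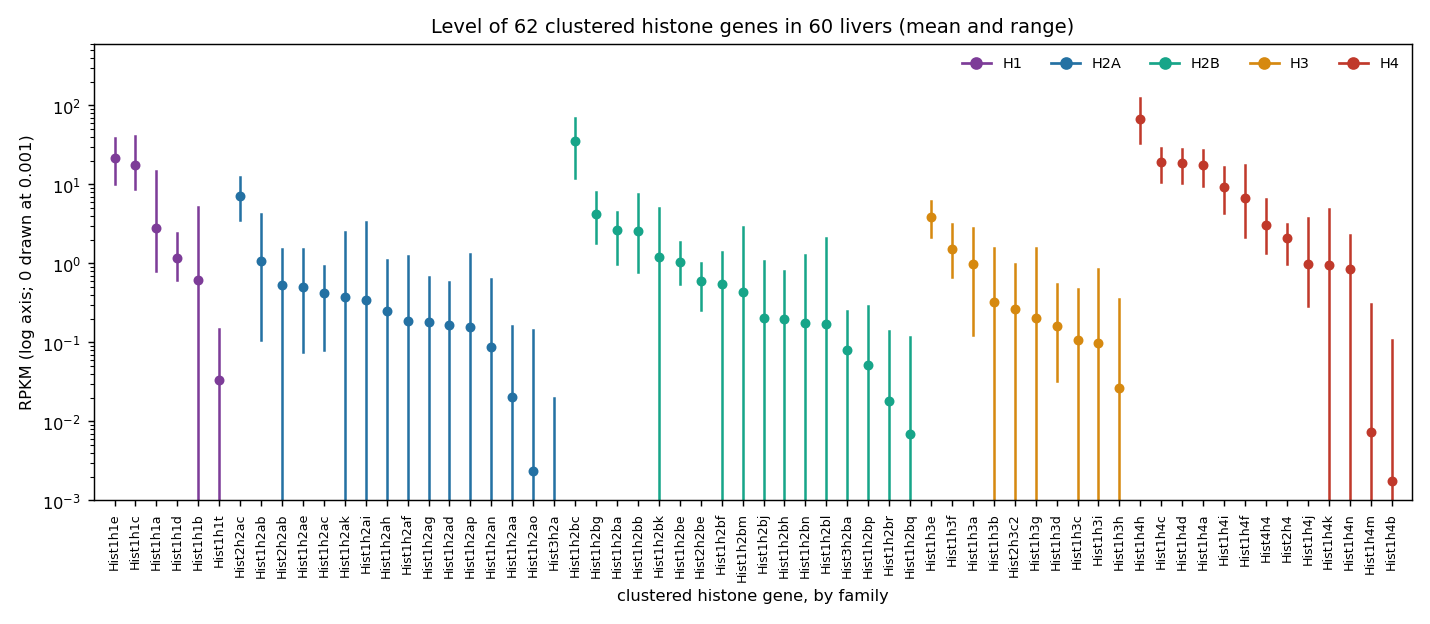
RPKM (log axis) of the 62 clustered histone genes above 0 in any liver, by family; points are means and lines the range over the 60 livers. Hist1h4h, at 67.6 RPKM, and Hist1h2bc, at 35.3 RPKM, are the highest, and H4 genes make up most of the upper range.

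H4, which pairs with H3 in the centre of the nucleosome, made up the largest share. Its genes held a median of 56.7% of the summed RPKM of the 67 genes, and 11 of the 13 reached a mean of 0.5 RPKM. Hist1h4h (chromosome 13, positions 23531050 to 23531519) was the highest gene of all, with 33.4 RPKM in the lowest liver, 68.7 in the median and 123 in the highest. Hist1h4c ranged from 10.7 to 29.2 RPKM with a median of 19.1, and Hist1h4d from 10.3 to 28.2 RPKM with a median of 19.04. The levels of these last 2 genes overlapped almost fully, while the lowest Hist1h4h value was above the highest of both.

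H2B genes held a median of 19.2% of the sum and H2A genes, which encode the partner of H2B in the nucleosome, 4.27%. Most H2B signal came from Hist1h2bc (chromosome 13, positions 23684199 to 23692908), whose RPKM was 12.2 in the lowest, 37.01 in the median and 69.8 in the highest liver. Hist1h2bc alone held 71.3% of the H2B mean, and it is among the 3 genes with a 3′ UTR of at least 60 bases and no stem-loop match. Of its 36-base stretches, 66.3% were found in no other gene, and the rest were shared with 926 other genes in all. How far reads of these genes enter the Hist1h2bc values, or their differences with time, was not tested. Hist1h2bg followed with a median of 4.34 RPKM (1.80 to 7.98). The highest H2A gene was Hist2h2ac with a median of 6.98 RPKM (3.50 to 12.3), followed by Hist1h2ab at 0.936 RPKM (0.106 to 4.17) and Hist2h2ab at 0.491 RPKM (0 to 1.54). The H2A genes thus ran below Hist1h2bc, and the ranges of Hist1h2ab and Hist2h2ab did not reach that of Hist1h2bc.

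H1, the linker histone that binds DNA where it enters and leaves the nucleosome, held a median of 15.9% of the sum through Hist1h1e and Hist1h1c. Hist1h1e (chromosome 13, positions 23620629 to 23622558) had 10.2 RPKM in the lowest, 20.4 in the median and 38.6 in the highest liver. Hist1h1c (chromosome 13, positions 23738808 to 23740367) had 8.69, 17.4 and 40.7 RPKM in the same order. Their ranges overlapped over most of their length, and Hist1h1a was lower, with a median of 2.25 RPKM (0.794 to 14.9). H3 genes held the smallest share, a median of 2.88%, led by Hist1h3e at a median of 3.86 RPKM (2.18 to 6.21), Hist1h3f at 1.49 RPKM (0.674 to 3.13) and Hist1h3a at 0.912 RPKM (0.124 to 2.79). Only 18.2% of the 36-base stretches of Hist1h3e were found in no other gene, against 51.7% for Hist1h4h. How far shared reads enter the family shares was not tested. H3 is also supplied by genes outside the clusters whose mRNAs carry poly(A) tails, of which H3f3b averaged 61.6 RPKM and H3f3a 29.4 RPKM.

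The genes known from male germ cells gave unequal values. Hist1h1t, the testis linker histone, averaged 0.033 RPKM and was at 0 in the median liver, and Hist1h2aa averaged 0.020 RPKM and did not exceed 0.159 RPKM. Hist1h2ba, the testis H2B gene, was between 0.980 and 4.503 RPKM in all livers, with a median of 2.58 RPKM. It was the third highest H2B gene. Of its 36-base stretches, 58.2% were found in no other gene, and the rest were shared with 19 other genes in all. How far reads of these genes enter its values was not tested.

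Each ion was compared with the non-irradiated control at each time, which asks whether irradiation changed histone RNA. In limma fits of log2(RPKM + 0.1) after scaling of the libraries, no clustered histone gene passed an adjusted p of 0.05 in any of the 15 comparisons, each of which tested 24 to 35 of the 67 genes among 11045 to 11442 genes. The share of all tested genes that passed was, for 56Fe at 1, 2, 4, 9 and 12 months, 1.18%, 0%, 0.541%, 3.65% and 0%. For 16O it was 1.6%, 0%, 0%, 1.11% and 0.00878%, and for 28Si 0.244%, 0.0181%, 0.382%, 0.124% and 0.0176%. At an unadjusted p below 0.05 there were 47 of 456 tests of histone genes (10.3%), close to the 11.1% of all tests, and the smallest adjusted p of a histone gene was 0.0572, for Hist1h4i in 56Fe livers at 9 months by limma.

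At 9 months, most tested histone genes were below 0 for 56Fe and 16O, and not for 28Si. The median log2 difference over the tested histone genes was -0.30 for 56Fe, with 25 of 30 genes below 0, and -0.32 for 16O, with 28 of 31 below 0. For 28Si it was 0.04, with 13 of 32 below 0, whereas the medians of all genes lay between -0.01 and 0.01 in every comparison. Of all tested genes, 49.6% were above 0 for 56Fe, 50.7% for 16O and 52.2% for 28Si. Genes measured in the same livers are not replicates, so such counts do not measure the spread among mice. Other lists gave unequal medians in the 56Fe and 16O comparisons: 0.03 and 0.06 for S phase and mitosis, -0.25 and -0.37 for sinusoidal endothelial markers (5 of 6 and 6 of 6 below 0), -0.26 and -0.92 for erythroid markers (4 of 5 and 5 of 5), -0.25 and -0.16 for stellate cell markers (4 of 5 each) and 0.40 and -0.02 for Kupffer cell markers. Of these markers, 1 was called, Hbb-bt, lower in 16O livers. The part of these cells in the histone values was not tested. The comparisons use the same 3 control livers and so are not separate observations. Hist1h4i (chromosome 13, positions 22040636 to 22041362), an H4 gene, had 9.25, 8.17 and 12.0 RPKM in the 56Fe livers and 10.4, 8.74 and 10.9 RPKM in the 16O livers, against 16.3, 14.1 and 12.2 RPKM in the control livers. All 6 irradiated livers of these 2 ions were below the lowest control liver. The log2 difference was -0.55 ± 0.13 (SE) for 56Fe and -0.52 ± 0.14 for 16O, and the limma adjusted p was 0.0572 and 0.12, neither of which passed. Without replicate 3 of 56Fe or of the control, the adjusted p for 56Fe was 0.0299 and 0.0421 by limma.

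Hist1h4k, another H4 gene, had 1.16, 0.821 and 0.762 RPKM in 56Fe livers, 0.814, 0 and 0.192 RPKM in 16O livers and 0.357, 0.977 and 0.271 RPKM in 28Si livers at 9 months, against 1.49, 1.52 and 2.12 RPKM in control livers. No irradiated liver at 9 months reached the range of these control livers. The limma adjusted p was 0.077 for 56Fe, 0.10 for 16O (0.0152 without 16O replicate 1) and 0.29 for 28Si. Control livers themselves ranged widely, with 2.78, 0.670 and 0.843 RPKM at 4 months and 0, 2.13 and 0.763 RPKM at 12 months. The Hist1h4k transcript has 312 bases, and 17.7% of its 36-base stretches were found in no other gene. How far reads of other genes enter its values was not tested, and the gene was named after its values were seen. Hist1h4f, a further H4 gene, had 7.41, 5.76 and 7.60 RPKM in 56Fe livers and 8.28, 3.72 and 5.50 RPKM in 16O livers, against 11.9, 7.86 and 11.2 RPKM in control livers. The 56Fe livers lay below the control livers, the 16O livers overlapped them, and the adjusted p was 0.078 and 0.18 by limma. At 12 months the sign was the other one for 16O, with 29 of 35 genes above 0 (50.3% of all genes) and a median of 0.20. Of these 35 genes, 0 had an unadjusted p below 0.05, against 2.14% of all genes. The summed histone RPKM was 233, 339 and 265 in these 16O livers, against 285, 236 and 247 in control livers. Replicate 2 of each group had a high Kupffer cell marker sum, 285 RPKM for 16O and 264 RPKM for the control. The part of single livers in this median was not tested.

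**Figure D2:**
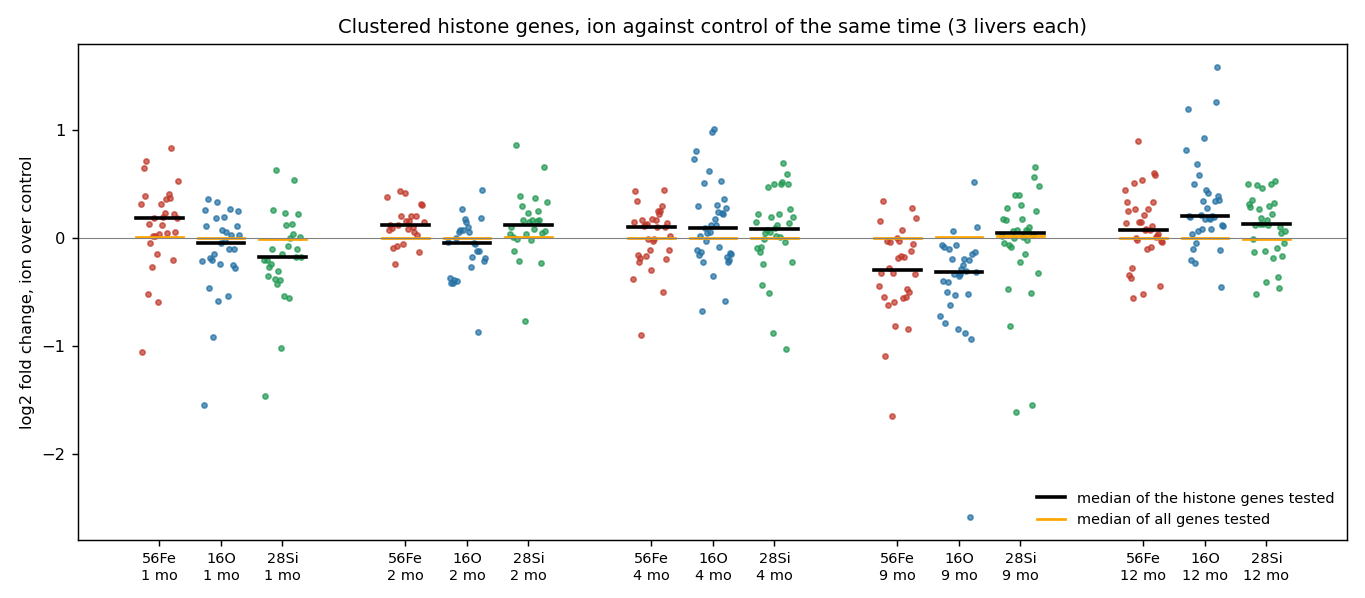
Log2 differences of the tested clustered histone genes between 56Fe, 16O or 28Si livers and control livers at each time (points), with black lines for the median over these genes. The medians lie between -0.32 and 0.20, and the 9-month comparisons of 56Fe and 16O have the lowest.

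At 1 month, the smallest adjusted p of the 56Fe comparison among histone genes were those of Hist1h1e and Hist1h1c. Hist1h1e had 27.9, 37.3 and 28.1 RPKM in 56Fe livers, against 16.0, 20.3 and 21.7 RPKM in control livers, and Hist1h1c had 20.9, 25.2 and 17.2 RPKM in 56Fe livers, against 12.6, 13.5 and 14.6 RPKM in control livers. Neither pair of groups overlapped, but 2 groups of 3 livers can lie apart by chance. The share of all genes with groups apart is not given here, for this or any other comparison. The log2 difference was 0.71 ± 0.15 (SE) for Hist1h1e with a limma adjusted p of 0.058 and 0.65 for Hist1h1c with 0.069. In limma-voom on estimated reads both passed, at 0.0368 and 0.0446. In 16O livers at 1 month Hist1h2bb had 1.52, 0.775 and 1.13 RPKM, against 2.03, 1.94 and 2.83 RPKM in control livers, groups that did not overlap, with an adjusted p of 0.066 by limma. Hist1h1b, a linker histone gene of dividing cells, was at 0.602, 1.25 and 0.169 RPKM in 56Fe livers, at 0.194, 0.662 and 0.297 RPKM in 16O livers and at 0.344, 0.327 and 0.567 RPKM in 28Si livers, against 1.08, 2.05 and 0.843 RPKM in control livers. All 16O and 28Si values were below the lowest control value and the 56Fe values overlapped the control values, with log2 differences of -1.06 for 56Fe, -1.55 for 16O and -1.46 for 28Si and limma adjusted p of 0.46, 0.13 and 0.18. Hist1h2bc, the main H2B gene, had 32.4, 19.6 and 26.1 RPKM in 28Si livers at 1 month, against 14.3, 12.2 and 22.7 RPKM in control livers. These groups overlapped, and the adjusted p was 0.21 in the fit of these 6 livers and 0.0437 in a limma fit of all 60.

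Averaged over the 5 times in 1 fit of all 60 libraries, 1 of 45 tested histone genes passed for 56Fe (background 1.12% of 12731 genes), 0 of 45 for 16O (0.668%) and 1 of 45 for 28Si (2.31%). An unadjusted p below 0.05 was reached by 2 of 45 histone genes for 56Fe (15.6% of all genes), 1 for 16O (13.2%) and 8 for 28Si (15.2%). Hist1h1e was higher in 56Fe livers by 0.34 ± 0.08 on the log2 scale (SE, limma adjusted p = 0.0365). At 2 months it had 35.7, 34.7 and 31.7 RPKM in 56Fe livers, against 38.6, 27.9 and 31.4 RPKM in control livers, which overlapped. At 4 months it had 19.1, 22.1 and 20.9 RPKM in 56Fe livers, against 17.9, 16.8 and 15.03 RPKM in control livers, with no overlap. At 9 months it had 27.9, 21.8 and 23.7 RPKM in 56Fe livers, against 22.6, 16.6 and 18.6 RPKM in control livers. Here 1 56Fe liver fell below the highest control liver. At 12 months it had 17.5, 22.1 and 24.2 RPKM in 56Fe livers, against 19.5, 16.1 and 16.0 RPKM in control livers. The groups were apart at 1 and 4 months and overlapped at 2, 9 and 12 months, and the log2 difference was above 0 at all 5 times (0.71, 0.09, 0.34, 0.34 and 0.25).

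The differences of Hist1h1e for the other ions were -0.11 ± 0.08 for 16O (95% interval -0.28 to 0.06) and -0.01 ± 0.08 for 28Si (-0.18 to 0.16), with limma adjusted p of 0.62 and 0.98. The call for 56Fe was lost without a filter on low values (adjusted p = 0.198 by limma), with RPKM as deposited (0.129) and without replicate 1, 2 or 3 (0.110, 0.268 and 0.276).

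Hist1h4i was higher in 28Si livers by 0.33 ± 0.09 on the log2 scale (SE, limma adjusted p = 0.034). Its RPKM at 4 months was 10.4, 13.5 and 16.0 in 28Si livers, against 8.26, 10.9 and 8.56 in control livers. At 9 months it was 12.8, 12.7 and 16.7 RPKM in 28Si livers, against 16.3, 14.1 and 12.2 RPKM in control livers. At 12 months it was 13.98, 10.7 and 9.88 RPKM in 28Si livers, against 12.4, 4.86 and 8.18 RPKM in control livers. The groups overlapped at each of these times, and the log2 difference at 1, 2, 4, 9 and 12 months was 0.13, 0.25, 0.69, 0.10 and 0.52. The call was lost without a filter (limma adjusted p = 0.114), with RPKM as deposited (0.146) and without replicate 2 or 3 (0.275 and 0.257).

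Of 8 tested short RNAs without a poly(A) tail, those called in the same 28Si average included Rpph1, the RNA of RNase P, at 1.55 on the log2 scale. Rny1 and Rny3, the Y RNAs, differed by 1.71 and 1.89, and Rn7s1, a signal recognition particle RNA, by 0.85, all called. The median of the 45 histone genes in that comparison was 0.05. Whether an ion's difference changed between neighbouring times was tested in 12 contrasts, in which 0 histone genes passed (background 0.246% of tests over all genes). At an unadjusted p below 0.05 there were 42 of 540 histone tests (7.78%), against 8.81% of tests over all genes. The smallest limma adjusted p was 0.151, for Hist1h4k in the 16O difference at 12 months minus that at 9 months.

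Larger differences ran with time. Against 1 month, averaged over the 4 treatments, 3 of 45 histone genes passed at 2 months (background 1.3%), 12 at 4 months (68%), 12 at 9 months (69.3%) and 12 at 12 months (66.1%). The 26.7% of histone genes called at each of the 3 later times was below the share of all genes. At 4 months 7 histone genes were higher and 5 lower, at 9 months 8 and 4, and at 12 months 6 and 6. The scaling sets these directions: in RPKM as deposited the median gene was higher than at 1 month by 0.42, 0.49 and 0.46 on the log2 scale at 4, 9 and 12 months, and the histone calls became 25 higher and 2 lower, 18 and 1, and 21 and 1.

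The calls at 2 months were Hist1h1e, at 0.39 ± 0.09, Hist1h2bc, at 0.30 ± 0.08, and Hist1h4n, an H4 gene, at -1.16 ± 0.31 (log2, SE, limma adjusted p 0.020, 0.046 and 0.046). Hist1h4n had 0, 0.331 and 0.938 RPKM in the lowest, median and highest of the 12 livers at 2 months, against 0.343, 0.689 and 1.34 RPKM at 1 month. The 2 ranges overlapped, and these calls were lost in RPKM as deposited.

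Because the libraries at 1 and 2 months stood apart, the 36 livers at 4, 9 and 12 months were also compared with the 24 livers at 1 and 2 months, a comparison added after the data had been seen. The summed histone RPKM had a median of 299.8 (226 to 400) at the later times, against 201.6 (149 to 272) at the earlier times. After scaling, 23 of 45 genes passed (51.1%), 15 higher and 8 lower, against a background of 77.9%, and in RPKM as deposited 26 were higher and 2 lower, with the median gene at 0.45. Under either scaling, the families moved unequally. The H1 share of the sum was 13.9% at the later times against 24.02% at the earlier times (medians), the H2B share 20.5% against 15.1% and the H4 share 57.8% against 54.2%. A share does not depend on the scaling of the libraries.

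**Figure D3:**
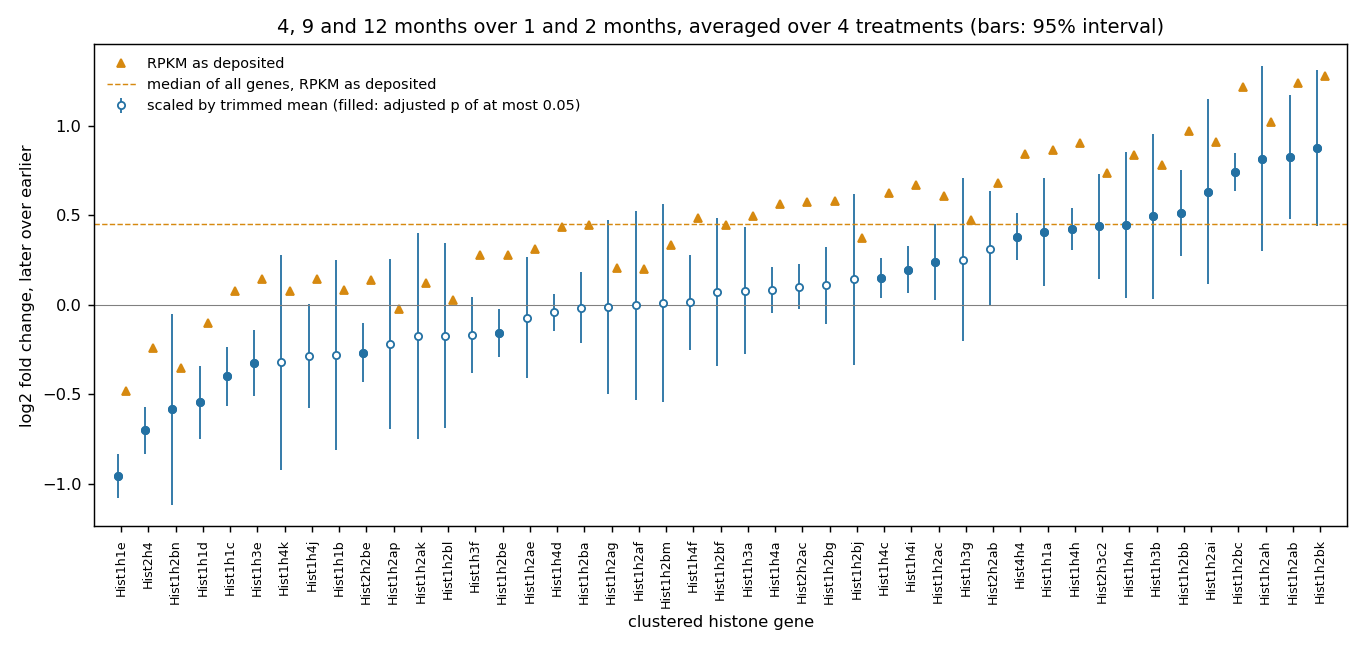
Log2 differences between livers at 4, 9 and 12 months and livers at 1 and 2 months for the 45 tested clustered histone genes, after scaling (circles with 95% intervals, filled where called) and in RPKM as deposited (triangles). Hist1h1e, at -0.96, is lowest and Hist1h2bc, at 0.74, is the highest of the genes with a mean of at least 10 RPKM.

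Of 5 tested H1 genes, 3 were lower and 1 was higher at the later times after scaling. Hist1h1e had 10.2, 17.9 and 27.9 RPKM in the lowest, median and highest liver at the later times, against 12.4, 26.8 and 38.6 RPKM at the earlier times. The ranges overlapped, with the later median below the earlier one. The log2 difference was -0.96 ± 0.06 after scaling (SE, limma adjusted p = 8.1e-19) and -0.48 in RPKM as deposited, so this gene was lower on both scales. Hist1h1d, an H1 gene of lower level, had 0.615, 1.08 and 2.43 RPKM at the later times, against 0.621, 1.26 and 1.63 RPKM at the earlier times, with a difference of -0.54 ± 0.10 after scaling (adjusted p = 5.9e-06 by limma) and of -0.10 in RPKM as deposited, where it was not called (0.35). Hist1h1c differed by -0.40 ± 0.08 after scaling and by 0.08 in RPKM as deposited, where it was not called. Hist1h1a was higher, at 1.45, 2.90 and 14.9 RPKM at the later times, against 0.794, 1.64 and 2.58 RPKM at the earlier times, and a difference of 0.41 ± 0.15.

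Hist1h2bc and the leading H4 gene were higher. Hist1h2bc had 28.9, 45.2 and 69.8 RPKM in the lowest, median and highest liver at the later times, against 12.2, 20.3 and 33.9 RPKM at the earlier times, with a log2 difference of 0.74 ± 0.05 (SE, limma adjusted p = 4e-17; 1.22 in RPKM as deposited). Hist1h4h had 62.9, 80.4 and 123 RPKM at the later times, against 33.4, 44.2 and 66.5 RPKM at the earlier times, with a difference of 0.42 ± 0.06 (adjusted p = 1e-08 by limma). For both genes, only the lowest later livers overlapped the highest earlier ones.

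Hist4h4, the H4 gene on chromosome 6, had 2.53, 3.52 and 6.52 RPKM at the later times, against 1.34, 1.97 and 2.99 RPKM at the earlier times, a difference of 0.38 ± 0.06. Hist2h4, an H4 gene on chromosome 3, had 0.993, 1.92 and 2.75 RPKM at the later times, against 1.28, 2.30 and 3.13 RPKM at the earlier times, a difference of -0.70 ± 0.07. The later median was higher for Hist4h4 and lower for Hist2h4, and the ranges overlapped for both genes. Values of these 2 genes for the same core histone thus differed in opposite directions. This also held in RPKM as deposited, at 0.84 and -0.24.

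**Figure D4:**
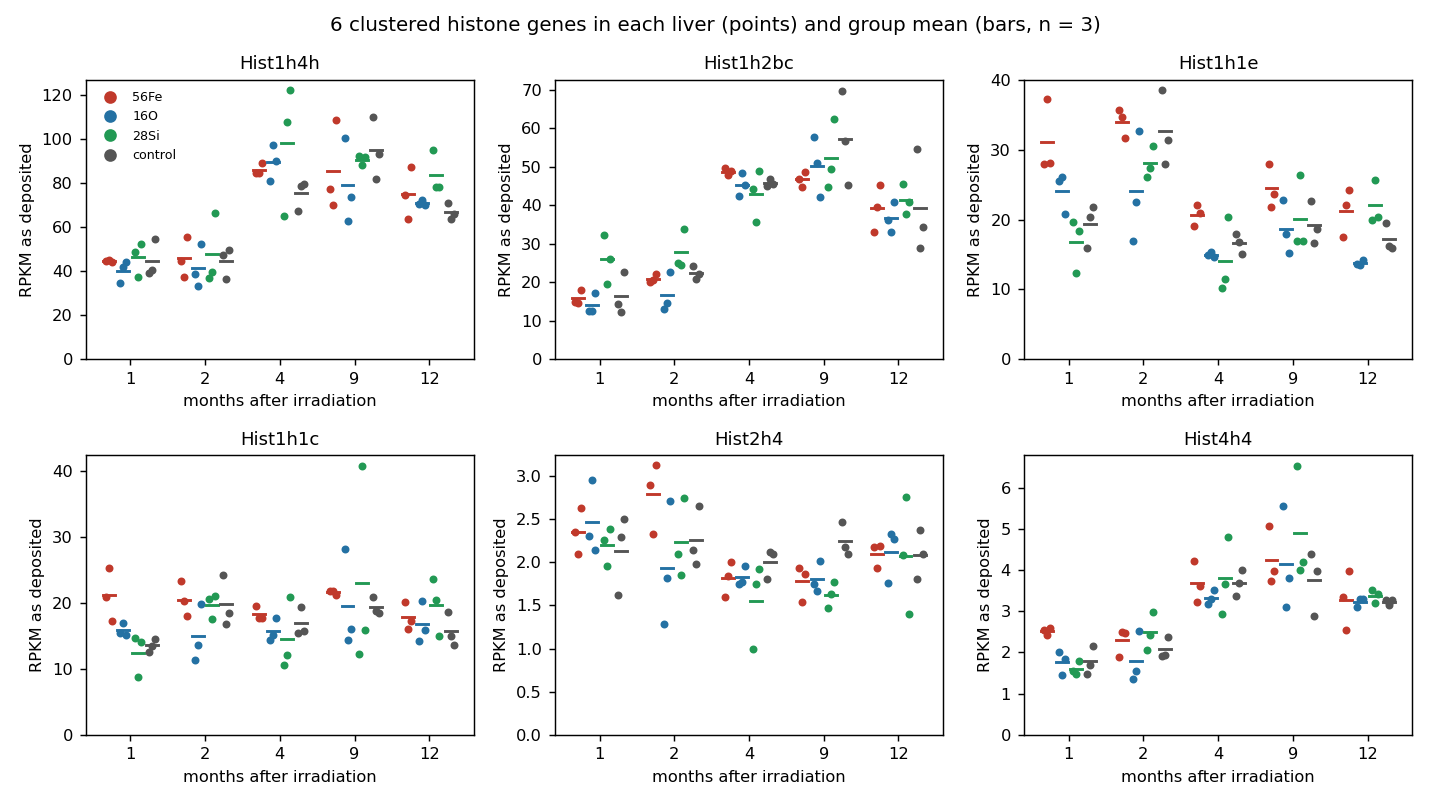
RPKM of Hist1h4h, Hist1h2bc, Hist1h1e, Hist1h1c, Hist2h4 and Hist4h4 in each of the 60 livers by time, with the ions and the control marked. Hist1h2bc and Hist1h4h are higher at 4, 9 and 12 months, and Hist1h1e has its highest values at 1 and 2 months.

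Among H2A and H2B genes of lower level, Hist1h2ab had 0.280, 1.31 and 4.17 RPKM at the later times, against 0.106, 0.476 and 1.02 RPKM at the earlier times, and Hist1h2bk had 0.430, 1.43 and 4.97 RPKM, against 0, 0.556 and 1.44 RPKM. The log2 differences were 0.82 ± 0.17 and 0.88 ± 0.22, and the ranges overlapped. Hist1h2bb differed by 0.51 ± 0.12 and Hist1h2ah by 0.82 ± 0.26, both called, while Hist1h2ah did not exceed 1.12 RPKM in any liver. Hist2h3c2, an H3 gene, differed by 0.44 ± 0.15 after scaling, while Hist1h3e, the leading H3 gene, differed by -0.32 ± 0.09 after scaling and by 0.14 in RPKM as deposited. Hist2h2be, an H2B gene, differed by -0.27 ± 0.08 after scaling and by 0.14 in RPKM as deposited, so neither direction of these last 2 genes held on both scales. Of the genes called at single times, Hist2h2ac differed by 0.34 ± 0.10 and Hist2h2ab by 0.64 ± 0.25 at 9 months, and Hist1h1b by -1.15 ± 0.41 at 9 months.

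Hist1h1e was lower and Hist1h2bc higher at the later times in each of the 4 treatments. Hist1h1e differed between the later and the earlier times by -1.07 in 56Fe livers, -1.10 in 16O livers, -0.67 in 28Si livers and -0.99 in control livers, each with an SE of 0.12. Hist1h2bc differed by 0.79, 1.03, 0.35 and 0.80 in the same 4 treatments, each with an SE of 0.11. A test of the ion's difference against that of the control gave 0 calls among 135 tests of histone genes (background 0.0236% of tests over all genes), with a smallest limma adjusted p of 0.271. An unadjusted p below 0.05 was reached in 10 of the 135 (7.41%), against 9.00% of tests over all genes.

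Genes that act on histone mRNA or take histones to DNA did not share 1 direction, and neither did all genes. Of the 12731 genes tested, 77.9% were called at the later against the earlier times, 5017 higher and 4896 lower. Of 14 tested genes for 3′ processing of histone mRNA, 6 were higher and 6 lower at the later times, among them Slbp, stem-loop binding protein, at -0.11, Lsm10, a subunit of the U7 particle that cuts histone pre-mRNA, at 0.65, and Eri1, an exonuclease of histone mRNA decay, at 0.53. Of 8 tested histone chaperones, 2 were higher and 3 lower, with Asf1a at 1.37 and Atrx at -0.88. Of 9 tested histone genes outside the clusters, 4 were higher and 4 lower, with H1f0, the linker histone of resting cells, at 0.46 and H3f3a at -0.55. The S phase and mitosis list had 9 higher and 2 lower of 19 tested, with Mcm6, part of the replicative helicase, at 0.69 and Mki67, a proliferation marker, at -0.59.

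Markers of other cell types moved with time as well, in a comparison that called 77.9% of all genes. The Kupffer cell marker sum was 44.6 to 475 RPKM at the later times, against 23.3 to 52.9 RPKM at the earlier times, with 5 of 6 markers higher. The erythroid sum was 96.1 to 549 RPKM, against 28.7 to 97.4 RPKM, with 5 of 6 tested markers higher, and the neutrophil sum 1.34 to 98.4 RPKM, against 0.288 to 2.41 RPKM, with 2 of 2 tested markers higher. The endothelial sum was 50.3 to 90.4 RPKM, against 28.6 to 45.95 RPKM. Their part in the histone differences was not tested.

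Since these genes are known for S phase, their variation among livers of the same group was set against the mean log2 level of 19 S phase and mitosis genes, a relation added after the data had been seen. In a limma fit with the 20 groups as terms, 22 of 45 histone genes were called, all with a positive slope, against a background of 25.2% of 12731 genes. The median slope was 0.81 log2 units of histone gene per log2 unit of the S phase mean, against -0.02 for all genes. Among genes with a mean of at least 10 RPKM, 1 of 7 was called, Hist1h4a, and among those below that level 21 of 38. The leading genes Hist1h4h, Hist1h2bc and Hist1h1e were not called.

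Some of the called genes had single high values at 12 months. Hist1h1a had 5.77, 1.75 and 3.50 RPKM in 56Fe livers and 1.86, 14.9 and 2.01 RPKM in 16O livers, against 2.49, 2.25 and 2.25 RPKM in control livers at 12 months. Hist1h1b had 2.97, 0.184 and 0.0776 RPKM in 56Fe livers and 0.370, 5.18 and 0.785 RPKM in 16O livers, against 0.460, 1.79 and 0.107 RPKM in control livers. Hist1h2ab had 2.57, 1.16 and 0.366 RPKM in 56Fe livers and 0.349, 4.17 and 1.23 RPKM in 16O livers, against 1.45, 1.41 and 1.17 RPKM in control livers. In each case the highest value was in replicate 2 of 16O, and the highest 56Fe value was in replicate 1.

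These 2 livers, with replicate 2 of the control, also had the highest Kupffer cell marker sums, 475 RPKM in the 56Fe liver, 285 RPKM in the 16O liver and 264 RPKM in the control liver. Without these 3 livers, 0 of 42 histone genes were called in the limma fit, and calls were lost over all genes alike (0.0397% of 12588). The median histone slope was then 0.59, and 14 of 42 histone genes (33.3%) had an unadjusted p below 0.05, against 5.78% of all genes. With the 60 livers, 5 of 6 Kupffer cell markers, 4 of 6 tested erythroid markers and both tested neutrophil markers were also called with positive slopes. In livers at 1 and 2 months 0 of 33 histone genes were called (background 0%), and 3 of them (9.09%) had an unadjusted p below 0.05, against 3.02% of all genes. At 4, 9 and 12 months 21 of 45 were called (background 28.3%), and without the 2 livers farthest from the median S phase level 7 of 41 (background 6.15%). These 2 livers were picked by their level among all livers, whereas the fit uses differences from the group mean. Replicate 1 of 56Fe and of 16O at 12 months, with differences of 0.59 and -0.52 log2, stayed in.

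**Figure D5:**
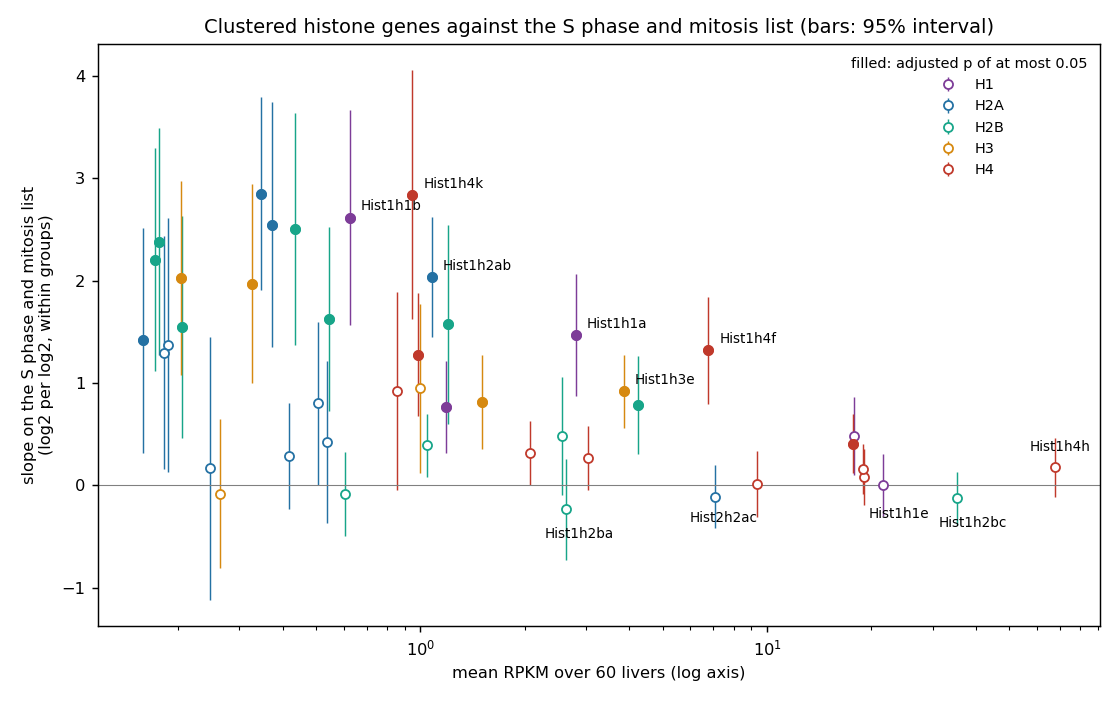
Slope of each of 45 clustered histone genes on the S phase and mitosis list over 60 livers (log2 per log2, within groups, bars for the 95% interval, filled where called) against the mean RPKM of the gene (log axis). Genes with a mean below 10 RPKM hold 21 of the 22 called slopes, and without 3 livers with high Kupffer cell markers 0 of 42 genes were called, with a median slope of 0.59.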

How the data were processed

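Total RNA from 60 mouse livers was depleted of ribosomal RNA with Ribo-Zero, made into TruSeq libraries and sequenced as 50-base pairs. Per the study's methods, the authors cut 14 bases from the read starts and mapped the reads to GRCm38 with annotation release 97 in CLC Genomics Workbench, at a length and similarity fraction of 95%. The authors deposited RPKM per transcript and library, 123811 transcripts in all, which were summed to 38204 genes. Group mean columns of the authors were not used, and 0 columns of single libraries were left out. The study's methods do not say how reads that map equally well to several genes were assigned. Such reads may raise or lower the values of close relatives. The study tested counts with another tool, whereas the deposited values are RPKM, so limma (version 3.58.1, R 4.3.3) was run on log2(RPKM + 0.1). Libraries were scaled by a trimmed mean of log ratios (30% of ratios and 5% of levels trimmed), genes of at least 0.5 RPKM in 3 libraries of the fit were kept, and p-values were adjusted over all genes by the method of Benjamini and Hochberg, with a threshold of 0.05. Fold changes understate low genes because of the pseudocount.

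Each ion was compared with the control at each time in 6 libraries. Averages over times or treatments, neighbouring times and the later against the earlier times came from fits of 60 libraries with 20 group means. Depth was 11412665 to 40568208 mapped read pairs, recovered from the step between low RPKM values, of which 99.76 to 99.96% were whole reads within 0.02. Transcript ends and stem-loops came from GENCODE M21, which held 123380 of the transcripts. Replicate numbers were checked as pairs: for 16O at 12 months all 3 pairs correlated above 0.1 (0.372, 0.522 and 0.254), in no other ion comparison. The scripts were tested on simulated data. Alternatives were other pseudocounts, filters and scalings, RPKM as deposited, limma-voom on estimated reads, a replicate block and leaving out replicates. The histone genes described were those called in any comparison, the 3 highest of each family, the 5 with the largest ratio between time means and the testis genes, with others named after their values were seen: Hist1h4k, Hist1h4f and Hist1h4a. Members, gene lists and tests were chosen with earlier results of these data known.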

Additional observations from a re-analysis of the deposited data

How the results depend on the processing

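Counts of called histone genes were recomputed under each alternative. At 1 month, limma-voom on estimated reads called 2 genes for 56Fe, Hist1h1e and Hist1h1c, and a fit of all 60 libraries called 1 for 28Si, Hist1h2bc, against 0 in the report. Averaged over times, 56Fe and 28Si had 0 calls without a filter and 0 in RPKM as deposited, and 28Si had 2 with upper-quartile scaling, Hist1h4i and Hist1h2bc. At 2 months against 1 month, 0 genes were called without a filter, 0 in RPKM as deposited and 1 by limma-voom. In RPKM as deposited, 27, 19 and 22 genes were called at 4, 9 and 12 months against 1 month, and the direction turned for Hist1h1c at 4 months (0.076, limma adjusted p 0.61) and 12 months (0.18, 0.22) and for Hist2h2be at 9 months (0.066, 0.65), none of them called; the upward shift of the median gene on that scale is given in the report. The slope on the S phase list was called for 7 genes without the 2 farthest libraries, for 0 at 1 and 2 months and for 0 without the 3 libraries with the highest Kupffer cell marker sum, alternatives added after the data had been seen.

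With replicate numbers as a block, 2 histone genes were called for 56Fe at 1 month (Hist1h1e and Hist1h1c) and 3 for 16O at 1 month (Hist1h1b, Hist1h2bb and Hist1h4f), although not all 3 pairs correlated above 0.1 there. For 16O at 12 months, where all 3 did, the block called 0, and it changed no other count of histone genes. Replicate 2 of both groups at 12 months had a high Kupffer cell marker sum (285 and 264 RPKM in 16O and control). No label pairs the livers, so these correlations do not show pairing. Leaving out 1 replicate at a time gave 0 to 1 calls for 56Fe at 1 month, 0 to 2 for 56Fe at 9 months, 0 to 2 for 16O at 9 months, 0 to 0 for the 56Fe average, 0 to 1 for the 28Si average and 0 to 1 at 2 months against 1 month. The contrasts between neighbouring times stayed at 0 histone genes under every alternative run. Why calls changed was not tested, and many tests of low genes rest on few reads: 22 of the 67 genes did not pass the filter.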

Other observations

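The annotated transcripts of several leading genes run on past the stem-loop, where mature histone mRNA is known to end. The annotated transcript of Hist4h4 continued for 2445 bases after it, that of Hist2h4 for 1257, that of Hist1h1e for 1153 and that of Hist1h1c for 840, whereas that of Hist1h4h continued for 46 bases. RPKM divides reads by the whole annotated length, so the order of levels among these genes depends on the annotation as well as on the reads, while comparisons of 1 gene between groups use the same length. Where the reads lie along these transcripts was not analysed here.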
